A study of Mus musculus with 2 samples.

Results

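The 39 genes described here encode the enzymes and transporters that carry glucose through glycolysis to pyruvate and lactate, the pyruvate dehydrogenase step with its kinases, and the transcription factor Hif1a. They were taken by gene name from the array annotation, out of 34843 genes or transcripts with a probe on the array. Each gene was read by its brightest probe over both arrays. RNA came from LSK cells of C57BL/6 bone marrow, which lack lineage markers and carry Sca-1 and c-Kit and which include the haematopoietic stem cells. The cells carried the Tet2KD/KD Ezh2Δ/Δ genotype and came from a myelodysplastic syndrome (MDS) passed on to secondary recipients, sampled 10 weeks after the transplantation. One group had 7 weeks of decitabine (DAC), a nucleoside drug that depletes DNA methyltransferases, and the other had phosphate-buffered saline (PBS) over the same 7 weeks. Both groups share the Tet2 and Ezh2 alleles, and neither group is wild type. Each group is 1 array, so no difference below has a replicate check and none was tested. The number of mice behind each array, any pooling, the Cre driver, the separation of donor from host cells and the DAC dose are not stated in the sources used here.

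Glycolysis splits glucose into pyruvate in the cytosol and yields ATP without oxygen. Pyruvate is then reduced to lactate and exported, or it enters mitochondria and is oxidised by the pyruvate dehydrogenase complex, which the PDK kinases switch off by phosphorylation. Quiescent haematopoietic stem cells of the mouse are known for their reliance on glycolysis, for HIF-1α, which induces many glycolytic genes, and for PDK enzymes that hold pyruvate back from mitochondria.

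Values are scaled log2 signals: the log2 intensity of a probe minus the 75th percentile of its array, so that 0 stands for a bright probe. A difference is DAC minus PBS on that scale, and 1 is 2-fold. Of all probes, 56.8% cleared background on the DAC array, against 48.5% on the PBS array. Across all measured genes the arrays correlated at r = 0.951 (a correlation over genes, not over replicates). The error given beside a difference is the SD over probes printed 10 times. It was 0.27 for dim, 0.14 for intermediate and 0.09 for bright probes and is technical. It leaves out disagreement between the probes of one gene, whose median range was 0.68 over all genes with several measured probes. LSK markers were present, with Kit at 2.64 on the DAC array, against 2.52 on the PBS array, and Ly6a (Sca-1) at 0.67 on the DAC array, against 0.60 on the PBS array. Gata2 was more than 2-fold higher on the DAC array (1.17), and Slamf1 was not well above background on either. In bulk RNA a smaller share of one cell type and less RNA per cell cannot be told apart.

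Of the 39 genes, 32 were well above background on both arrays, 6 on the DAC array only, 0 on the PBS array only, and Pfkfb1 on neither. The 6 were 15.8% of the 38 detected members, against 14.5% of the 22435 detected genes of the array that were above background on the DAC array only. Among the 32, Pdk2 and Aldoc were at least 2-fold higher on the DAC array, against 1829 of 18222 measured genes (10.0%). Gapdhs and Pfkfb3 were at least 2-fold lower, against 1248 measured genes (6.85%). The other 28 (87.5%) stayed within 2-fold, as did 83.1% of all measured genes. The median difference of the members was −0.01 and that of all measured genes 0.02, with 15 members above 0 and 17 below. Slc16a1 and Slc16a3, the lactate transporters, were at least 2-fold higher on the DAC array as lower bounds under the reported scaling. Such a bound is set against whichever is higher on the opposite array, the probe's own value or the dimmest value that was called above background. Of all detected genes, 5.50% had such a bound in that direction and 2.34% in the opposite one. The shares of members past 2-fold were thus near those of the whole array.

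The split of calls moved with the scaling. With each array scaled on all its probes, 1 member was at least 2-fold higher and 5 lower, and over the whole array 1335 genes were higher and 1853 lower. The corresponding counts over the whole array were 1441 and 1698 after centring on the median, 1346 and 1841 after quantile normalization, 1494 and 1541 after loess, and 1113 and 2357 on the single measured spike-in probe. Pdk2 stayed at least 2-fold higher and Gapdhs at least 2-fold lower under every scaling and background setting tried. Aldoc did not, and lay between 0.64 and 0.86 under the alternative scalings and background settings. Lower bounds were computed under the reported scaling only. Several other scalings lower every difference by a constant. Bounds close to 2-fold, such as that of Slc16a1 (2.17-fold), need not reach 2-fold there. Those close to level, such as Pgk2 (1.08-fold) and Pfkfb2 (1.17-fold), need not stay above level.

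**Figure D1:**
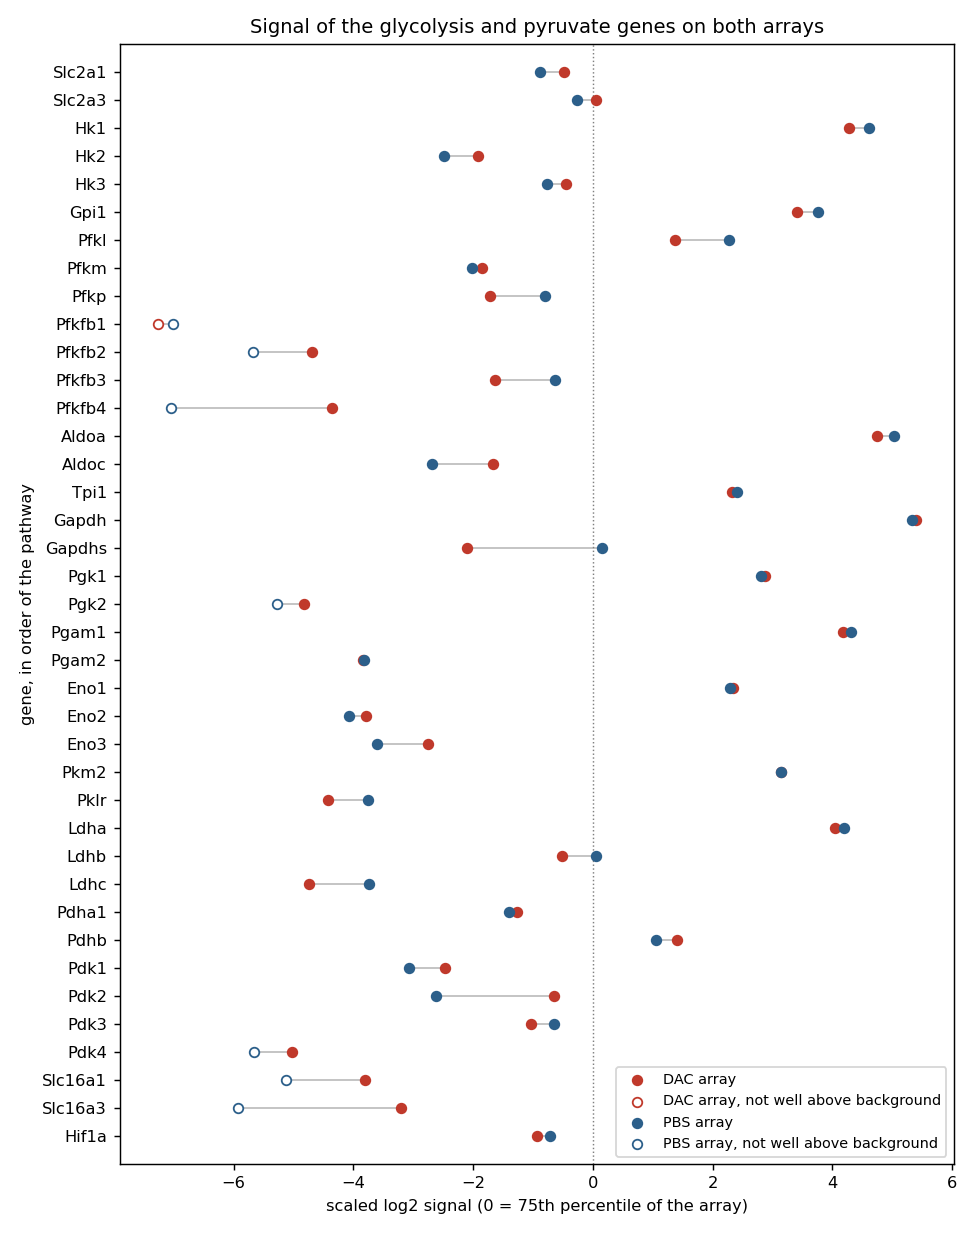
Scaled log2 signal of each of the 39 genes (rows, in pathway order) on the DAC array (red) and the PBS array (blue), 1 array each, with open circles for probes not well above background. Bright probes, such as that of Gapdh at 5.39 on the DAC array, against 5.33 on the PBS array, nearly coincide, while Pdk2 and Gapdhs lie farthest apart among the measured genes.

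Signal strength separated the members. The 12 whose mean scaled signal was at or above 0 differed by −0.90 to 0.35, with a median of −0.10, and 0% of them passed 2-fold. The 5129 genes of the array in that range had a median of −0.15, and 4.72% of them passed. The 20 dimmer members differed by −2.25 to 1.98 with a median of 0.15, and 20% passed 2-fold, against a median of 0.11 and 21.7% of 13093 dimmer genes.

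**Figure D2:**
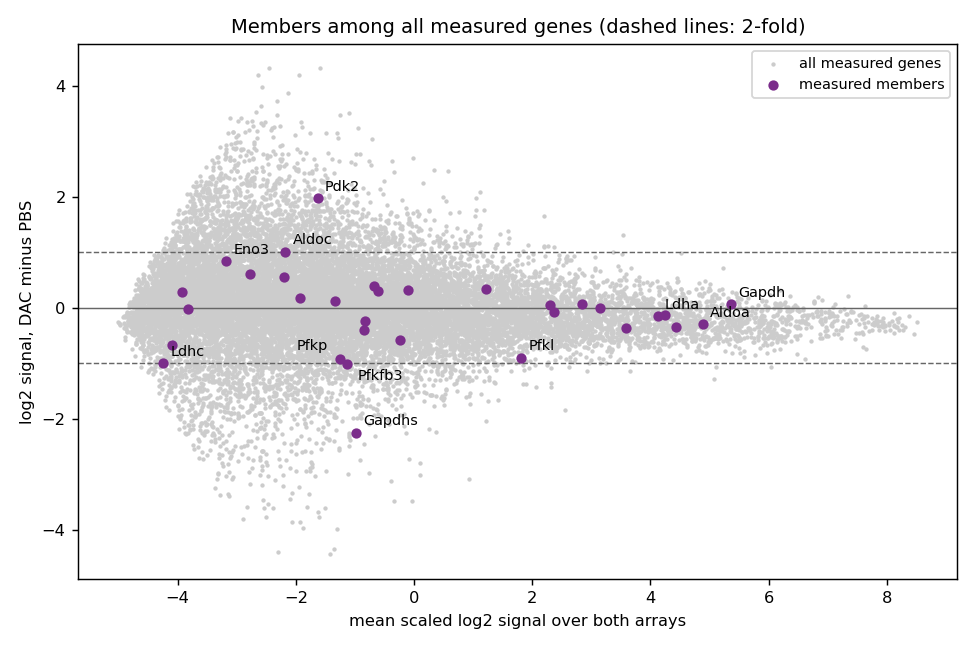
Difference between the arrays (DAC minus PBS, log2) against mean scaled log2 signal for all 18222 measured genes (grey) and the 32 measured members (purple), with dashed lines at 2-fold. Pdk2 (1.98) and Gapdhs (−2.25) stand outside the dashed lines, and the brightest members lie close to 0.

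Glucose enters through the facilitated transporters GLUT1 and GLUT3. Slc2a1 (GLUT1) had a signal of −0.49 on the DAC array, against −0.88 on the PBS array, a difference of 0.39. Slc2a3 (GLUT3) had 0.05 on the DAC array, against −0.27 on the PBS array, a difference of 0.31. Both transporters were higher on the DAC array by similar amounts, with 0.08 ± 0.12 (SD over repeated spots) between their differences. Over the scalings Slc2a1 ranged from 0.08 to 0.39 and Slc2a3 from 0.00 to 0.32.

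Hexokinases phosphorylate glucose and trap it in the cell. Hk1, the widely expressed form, had 4.27 on the DAC array, against 4.61 on the PBS array, a difference of −0.34. The scanner file places that probe on chromosome 5, whereas the gene lies on chromosome 10. The other measured Hk1 probes had 3.15 on the DAC array, against 2.84 on the PBS array, a difference of 0.31, and 0.64 on the DAC array, against −0.31 on the PBS array, a difference of 0.95. The direction for Hk1 therefore depended on the probe. Hk2, the insulin-regulated form also known as a HIF-1 target, had −1.92 on the DAC array, against −2.49 on the PBS array, a difference of 0.56, and stayed above 0 under every scaling (0.25 to 0.56). Hk3, a form of myeloid cells, had −0.46 on the DAC array, against −0.76 on the PBS array, a difference of 0.30 that lay between −0.01 and 0.30 over the scalings. The difference of Hk1 was thus below that of Hk2 by the probe on chromosome 5 (−0.34) and by the second probe (0.31), and above it by the remaining one (0.95).

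Glucose-6-phosphate isomerase, encoded by Gpi1, turns glucose-6-phosphate into fructose-6-phosphate. Gpi1 had 3.40 on the DAC array, against 3.76 on the PBS array, a difference of −0.36. Its other 2 probes, which begin within a few bases of the first, gave −0.41 and −0.44. The gene was lower on the DAC array with each probe and under every scaling (−0.67 to −0.17).

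Phosphofructokinase commits sugar to glycolysis, and its liver, muscle and platelet subunits are encoded by Pfkl, Pfkm and Pfkp. Pfkl had 1.37 on the DAC array, against 2.27 on the PBS array, a difference of −0.90, which was the lowest among the 12 bright members. Pfkp had −1.72 on the DAC array, against −0.80 on the PBS array, a difference of −0.93. Pfkm was printed 10 times and averaged −1.85 ± 0.05 on the DAC array, against −2.02 ± 0.07 on the PBS array (SD over spots), a difference of 0.17. By their brightest probes, Pfkl and Pfkp differed between the arrays by like amounts (0.03 ± 0.17 between them), and each stood apart from Pfkm by 1.07 ± 0.17 for Pfkl and 1.10 ± 0.20 for Pfkp. A second Pfkp probe, nearer the 5′ end, had −1.64 on the DAC array, against −2.02 on the PBS array, a difference of 0.38 and of the opposite sign, so the place of Pfkp beside Pfkl and Pfkm depended on the probe. Over the scalings Pfkl ranged from −1.21 to −0.78 and Pfkp from −1.24 to −0.93, while Pfkm ranged from −0.14 to 0.17.

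The PFKFB enzymes make and break fructose-2,6-bisphosphate, the strongest activator of phosphofructokinase. Pfkfb3, the form with the highest kinase activity, had −1.64 on the DAC array, against −0.63 on the PBS array, a difference of −1.01, just past 2-fold. A second Pfkfb3 probe nearer the 3′ end had −1.07 on the DAC array, against −1.42 on the PBS array, a difference of 0.35, so the probes disagreed in direction. The first is placed at chr2:11404189-11405602, a span longer than the probe itself, and the second at chr2:11393453-11393512 (mm9, minus strand). Without the background subtraction and after normexp correction the Pfkfb3 difference was −0.86. Pfkfb4, whose transcript is induced by hypoxia, cleared background only in the DAC sample, with an intensity of 39.8 there and 4.68 on the PBS array. It was at least 1.49-fold higher on the DAC array. The second Pfkfb4 probe was not well above background on either array. Pfkfb2, the heart form, was also seen on the DAC array only and was at least 1.17-fold higher.

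Aldolase cleaves fructose-1,6-bisphosphate, and Aldoa and Aldoc encode its muscle and brain forms. Aldoc had −1.67 on the DAC array, against −2.69 on the PBS array, with intensities of 255 on the DAC array, against 95.7 on the PBS array. Its difference of 1.02 is 2.02-fold, and Aldoc has 1 probe on the array, at chr11:78140198-78140257 (mm9, plus strand). Aldoa had 4.75 on the DAC array, against 5.04 on the PBS array, a difference of −0.29 that ranged from −0.60 to −0.06 over the scalings. The differences of the 2 aldolases were 1.31 ± 0.17 apart. Tpi1, which interconverts the triose phosphates, had 2.32 on the DAC array, against 2.41 on the PBS array, a difference of −0.08. A second Tpi1 probe in the 5′ direction had 1.85 on the DAC array, against 2.77 on the PBS array, a difference of −0.92.

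GAPDH oxidises glyceraldehyde-3-phosphate, and Gapdhs encodes the form known from sperm. Gapdhs was the member with the lowest difference. Its brightest probe had −2.11 on the DAC array, against 0.15 on the PBS array, with intensities of 189 on the DAC array, against 683 on the PBS array. The difference of −2.25 is 4.76-fold lower in the DAC sample and stayed between −2.56 and −1.88 over all scalings and background settings. A second probe lies nearby and does not overlap the first. It was not well above background on either array, with −5.72 on the DAC array, against −7.12 on the PBS array. The brightest probe is annotated to an Ensembl transcript and the second to the RefSeq transcript of Gapdhs. The opening 30 of the 60 bases of both probes are shown because only the first carried the difference. The brightest probe lies at chr7:31514799-31514858 and the second at chr7:31514906-31514965, both on the minus strand of mm9.
Gapdhs brightest probe: tcggcttccactcaaaggcgccgccaccgg
Gapdhs second probe: tatggctacagtaaccgagtggtcgacctc
Genes next to Gapdhs in the GRCm38.p6 gene order gave smaller differences. Tmem147 had 1.77 on the DAC array, against 2.01 on the PBS array, a difference of −0.24. Sbsn differed by 0.07 and the dim Atp4a by −0.90. Of 8 testis germ cell markers, 3 were measured on both arrays, with a log2 summed signal of −1.05 on the DAC array, against −1.01 on the PBS array. Of these 3, Sycp3 differed by −1.26, Prm1 by −0.67 and Prm2 by 0.53. Ddx4 and Tnp1 were seen only in the DAC sample, at least 2.33-fold and 1.45-fold higher, and Dazl, Odf1 and Acrv1 were not well above background on either array. The part of such transcripts in the Gapdhs value was not tested.

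Gapdh itself, the form of all tissues, had 5.39 on the DAC array, against 5.33 on the PBS array, a difference of 0.07. The 8 probes under its name agreed between −0.00 and 0.13. Those with differences of −0.00, 0.02 and 0.08 are placed on chromosomes 8, X and 7, whereas the gene lies on chromosome 6. The Gapdh difference lay between −0.24 and 0.32 over the scalings, so its direction was set by the scaling. The differences of Gapdh and Gapdhs were 2.32 ± 0.17 apart, a gap that a constant scaling cannot alter.

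The steps from 1,3-bisphosphoglycerate to pyruvate were nearly level in their widely expressed isoforms. Pgk1, which makes ATP from 1,3-bisphosphoglycerate, differed by 0.07, with 2.88 on the DAC array, against 2.81 on the PBS array. Pgam1, the phosphoglycerate mutase of most tissues, differed by −0.13, with 4.18 on the DAC array, against 4.30 on the PBS array. Eno1, the widespread enolase, differed by 0.05, with 2.33 on the DAC array, against 2.28 on the PBS array. Pkm2, now named Pkm, encodes the muscle-type pyruvate kinase and differed by −0.01, with 3.14 on both arrays. The sign of all 4 depended on the scaling, within −0.44 to 0.25. The only probe for Pgk1 is placed by the scanner file on chromosome 3, whereas the gene lies on X, and the only probe for Eno1 on chromosome 2, whereas the gene lies on chromosome 4.

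The tissue-restricted isoforms of these steps spread wider. Eno3, the muscle enolase, had −2.76 on the DAC array, against −3.60 on the PBS array, a difference of 0.84 that was 0.30 at its lowest over the background settings. Eno2, the neuronal enolase, differed by 0.29 (−0.17 to 0.29 over the scalings), and Pgam2, the muscle mutase, by −0.02. Pklr, the liver and red cell pyruvate kinase, had −4.43 on the DAC array, against −3.76 on the PBS array, a difference of −0.67. Pgk2, the sperm form of phosphoglycerate kinase, was seen only in the DAC sample, where it was at least 1.08-fold higher. Eno3 stood 0.79 ± 0.28 above Eno1 in its difference and Pklr 0.67 ± 0.28 below Pkm2, whereas Eno2 and Eno1 were 0.24 ± 0.28 apart and Pgam2 and Pgam1 0.10 ± 0.28.

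**Figure D3:**
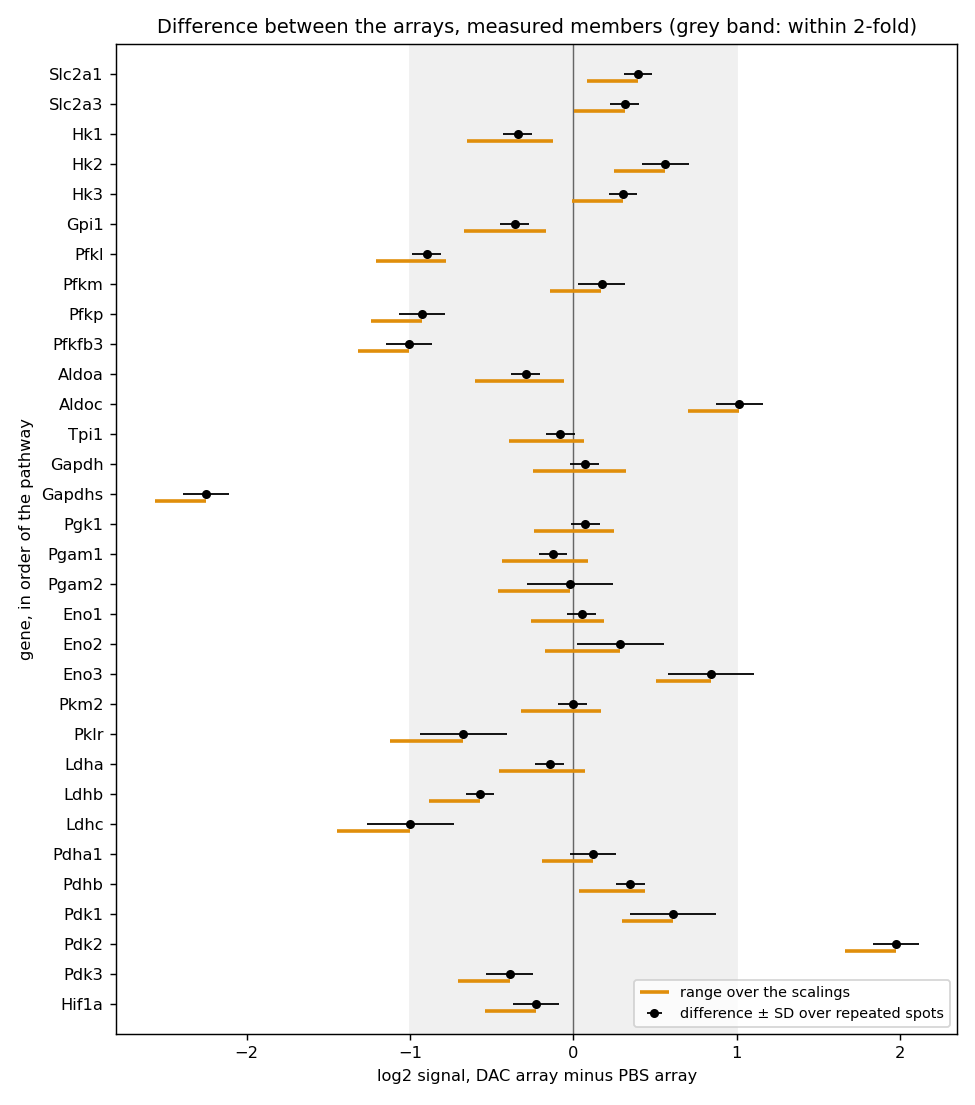
Difference between the arrays (DAC minus PBS, log2) for the 32 members measured on both, in pathway order, with black bars for the SD over repeated spots of like brightness and orange lines for the range over scalings. Pdk2 at 1.98 and Gapdhs at −2.25 lie outside the 2-fold band (grey) with their whole orange lines.

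Lactate dehydrogenase turns pyruvate into lactate and regenerates NAD+. All 3 subunit genes were lower on the DAC array by their brightest probes, though Ldha was above 0 under some scalings (−0.46 to 0.07). Ldha, the muscle-type subunit and a HIF-1 target, had 4.05 on the DAC array, against 4.20 on the PBS array, a difference of −0.15. Ldhb, the heart-type subunit, had −0.52 on the DAC array, against 0.05 on the PBS array, a difference of −0.57 (−0.88 to −0.57 over the scalings). Ldhc, the testis subunit, had −4.74 on the DAC array, against −3.74 on the PBS array. Its difference of −0.998 fell just short of the 2-fold limit, and it was past that limit under each other scaling (−1.06 to −1.45) and at −0.64 to −0.59 under the background alternatives. The difference of Ldha was 0.43 ± 0.12 above that of Ldhb and 0.85 ± 0.28 above that of Ldhc. The second Ldhc probe was not well above background on either array.

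The 3 Ldha probes gave different sizes along one transcript. The brightest starts 1755 bases into the transcript and gave −0.15. The next, at 970 bases, had 1.71 on the DAC array, against 2.27 on the PBS array, a difference of −0.56. The one at 351 bases had −0.14 on the DAC array, against 1.43 on the PBS array, a difference of −1.57. All 3 were lower on the DAC array, and the difference was larger toward the 5′ end. The opening 30 bases of each are shown from the 3′ to the 5′ position, since the Ldha value depends on which is read. They lie on the plus strand of mm9 at chr7:54110937-54110996, chr7:54107294-54107353 and chr7:54103010-54103069.
Ldha probe at 1755: tgcatatggatgatggaaccaaccacccaa
Ldha probe at 970: cttaacccagaactgggcactgacgcagac
Ldha probe at 351: gctgattgtgaatcttcttaaggaagagca
Over 1957 transcripts with measured probes at least 200 bases apart, the 5′ difference minus the 3′ difference had a median of −0.09 and quartiles of −0.76 and 0.55. Ldha was at −1.42, and 10.4% of transcripts were at or below it. Tpi1 was at −0.84, Gapdh at 0.00, Hk1 at 0.64 and Pfkp at 1.31, so the members showed no common direction along the transcript.

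**Figure D4:**
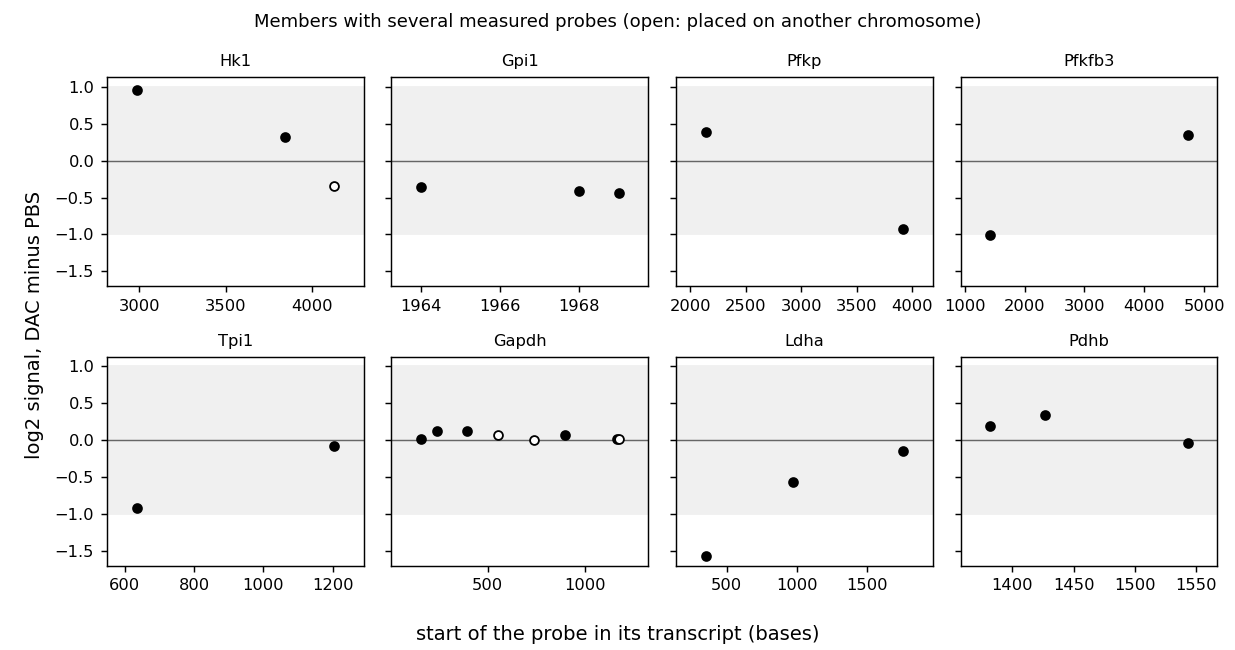
Difference between the arrays (DAC minus PBS, log2) against the start of each measured probe in its transcript (bases) for the 8 members with several measured probes, where open circles are probes placed on another chromosome than the gene. Probes of Hk1, Pfkfb3, Pdhb and Gapdh are positioned in different transcripts, so their order here need not be that along the gene. Gapdh and Gpi1 probes lie close together, Ldha probes run from −1.57 to −0.15, and the Pfkp and Pfkfb3 probes lie on both sides of 0.

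Several measured probes were available for 8 members, and in 3 of them (37.5%) all probes had the same sign. Over the array this held for 2454 of 4649 such genes (52.8%), and the number of probes per gene was not matched. Gapdh and Pdhb count as differing in sign through 1 probe each, at −0.00 and −0.04. The median distance between the lowest and the highest probe of a gene was 1.07 for these members and 0.68 for all such genes. Of the 63 probes of the members, 6 in 4 genes are placed on another chromosome than the gene.

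The pyruvate dehydrogenase E1 subunits, encoded by Pdha1 and Pdhb, were close to level. Pdha1 had −1.28 on the DAC array, against −1.40 on the PBS array, a difference of 0.12 that lay between −0.19 and 0.12 over the scalings. Pdhb had 1.40 on the DAC array, against 1.05 on the PBS array, a difference of 0.35. Its other probes gave 0.20 and −0.04. The differences of both subunits were 0.23 ± 0.17 apart.

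Pdk2, a widely expressed kinase that inactivates pyruvate dehydrogenase, was the member with the highest difference. It had −0.64 on the DAC array, against −2.62 on the PBS array, with intensities of 520 on the DAC array, against 101 on the PBS array. The difference of 1.98 is 3.93-fold higher on the DAC array, and it lay between 1.44 and 1.98 over all scalings and background settings. The second Pdk2 probe cleared background only in the DAC sample, with an intensity of 331 there and 4.31 on the PBS array, and was at least 12.4-fold higher on the DAC array. Both Pdk2 probes were thus higher on the DAC array. Their opening 30 bases are shown because they read separate stretches of the gene, at chr11:94887980-94888039 for the brightest and chr11:94887669-94887728 for the second (mm9, minus strand).
Pdk2 brightest probe: agagggagtgggggaagatagggtccaccc
Pdk2 second probe: acaagtgactcacccctaggacagccctat
Their place relative to exons and untranslated regions is not stated in the sources used here.

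Among the other PDK genes, Pdk1 and Pdk3 stayed within 2-fold. Pdk1, the HIF-1-induced form, had −2.47 on the DAC array, against −3.08 on the PBS array, a difference of 0.61 that was 0.22 to 0.27 under the background alternatives. Pdk3 had −1.04 on the DAC array, against −0.65 on the PBS array, a difference of −0.39. Pdk2 stood 1.37 ± 0.30 above Pdk1 and 2.37 ± 0.20 above Pdk3 in its difference, and Pdk1 and Pdk3 were 1.00 ± 0.30 apart. Pdk4, the starvation-induced form, cleared background only in the DAC sample, but its signal of −5.02 there gave no bound past 1-fold against the PBS array.

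The monocarboxylate transporters MCT1 and MCT4 move lactate across the cell membrane, MCT4 mainly outward in glycolytic cells. Slc16a3 (MCT4) cleared background only in the DAC sample, with an intensity of 87.7 there and 10.2 on the PBS array, and was at least 3.29-fold higher on the DAC array. Its second probe gave at least 2.47-fold higher. Slc16a1 (MCT1), read at chr3:104462276-104462335 (mm9), had an intensity of 58.0 on the DAC array, against 17.7 on the PBS array, below the limit there. It was at least 2.17-fold higher under the reported scaling, the only one used for bounds. Both transporters were dim, and more probes were above background on the DAC array generally. The 2 Slc16a3 probes overlap and are no independent readings, as their opening 30 bases show, with the bases shared between these stretches in capitals. They lie at chr11:120820023-120820082 and chr11:120820030-120820089 (mm9, plus strand).
Slc16a3 brightest probe: ctgggcaGTGGTCTGTTCACCCTGAGTCCC
Slc16a3 second probe: GTGGTCTGTTCACCCTGAGTCCCacccttt

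Hif1a, which encodes the oxygen-regulated subunit of HIF-1, had −0.94 on the DAC array, against −0.71 on the PBS array, a difference of −0.23 (−0.54 to −0.23 over the scalings). HIF-1α is regulated mainly through protein stability, so its transcript level is no measure of its activity. A second probe under the same gene name reads the cDNA AK017853 at chr12:75033965-75034024 (mm9, plus strand). It had −1.78 on the DAC array, against −5.11 on the PBS array, where it was not well above background, and was at least 8.89-fold higher on the DAC array. The probes for this gene name thus differed in direction.

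The upstream sequences of the members were searched for ACGTG, one form of the core bound by HIF-1, on both strands. A CACGTG box, bound by Myc and other E-box factors, contains that motif on each strand. RefSeq promoters of GRCm38.p6 were matched for 38 of the 39 members, which have 60 annotated starts. In the 250 bases upstream, 21 of the 60 (35%) held ACGTG, against 5444 of 32851 promoters (16.6%). CACGTG stood in 7 (11.7%) and in 6.02% of all promoters. The member promoters also held more CG dinucleotides, with a median of 11 against 6, and base composition was not matched. By gene, ACGTG stood in at least 1 promoter of 17 of the 38 matched members (44.7%). The promoters of the 3 members that were at least 2-fold higher and held ACGTG are shown with the motif in capitals. They are Pdk2 at chr11:95041372-95041621 (minus strand), Slc16a3 at chr11:120948817-120949066 (plus strand) and Slc16a1 at chr3:104638414-104638663 (plus strand).
Pdk2 promoter: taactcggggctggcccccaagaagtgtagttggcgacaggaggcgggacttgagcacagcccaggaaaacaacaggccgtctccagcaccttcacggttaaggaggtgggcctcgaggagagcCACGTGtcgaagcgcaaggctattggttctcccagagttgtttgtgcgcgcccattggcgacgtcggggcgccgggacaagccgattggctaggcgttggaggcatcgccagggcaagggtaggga
Slc16a3 promoter: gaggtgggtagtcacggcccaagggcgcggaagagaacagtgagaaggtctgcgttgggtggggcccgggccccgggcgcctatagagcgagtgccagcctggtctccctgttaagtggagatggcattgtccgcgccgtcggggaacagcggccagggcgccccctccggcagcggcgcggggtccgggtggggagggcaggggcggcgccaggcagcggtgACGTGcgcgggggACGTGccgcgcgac
Slc16a1 promoter: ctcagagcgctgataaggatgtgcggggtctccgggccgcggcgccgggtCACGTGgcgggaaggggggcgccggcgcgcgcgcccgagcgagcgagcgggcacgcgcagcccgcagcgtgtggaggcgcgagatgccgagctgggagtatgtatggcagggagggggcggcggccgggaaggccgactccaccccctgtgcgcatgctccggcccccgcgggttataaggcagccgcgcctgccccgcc
Pdk2 and Slc16a1 each hold 1 CACGTG box here, and Slc16a3 holds 2 copies of ACGTG. The other annotated Pdk2 promoter, at chr11:95040876-95041125, holds 0. Ldha, which was not higher on the DAC array, has 5 matches in its first promoter, and Pfkfb3, lower by its brightest probe, has 1 match in one promoter and 2 in the other, as 1 CACGTG box. Aldoc, Pfkfb4 and Gapdhs have none. A match is a stretch of letters and no measured binding site.

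Over the whole array, 10.0% of measured genes were at least 2-fold higher on the DAC array, 6.85% lower and 83.1% within 2-fold. Of 112 other genes of sugar metabolism and its control, 83 were measured on both arrays. Of these 83, 5 were at least 2-fold higher on the DAC array, 5 lower and 73 within 2-fold. The higher ones were Bpgm, which makes the red cell effector 2,3-bisphosphoglycerate (difference 1.44), the gluconeogenic Fbp1 (1.51), the muscle glycogen phosphorylase Pygm (1.15), the pyruvate dehydrogenase E2 subunit Dlat (1.15) and the HIF-1 target Kdm3a (1.52). The lower ones were the brain glycogen phosphorylase Pygb (−1.33), the glycogen branching enzyme Gbe1 (−1.05), Ugp2, which makes UDP-glucose (−1.13), the pyruvate dehydrogenase phosphatase regulator Pdpr (−1.65) and the hypoxia-induced mitochondrial protein Higd1a (−1.10). On the DAC array only, 8 more were seen, of which Slc2a8 was at least 2.36-fold, Tigar (9630033F20Rik in the file) at least 7.61-fold and Prkaa1 at least 4.004-fold higher. On the PBS array only, 4 were seen, of which Gpd1 was at least 3.51-fold and Slc16a7 (MCT2) at least 3.68-fold lower in the DAC sample.

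By branch, the medians stayed within 2-fold. The 9 measured pentose phosphate genes had a median difference of −0.28 and the 16 TCA cycle genes −0.28, with 0 past 2-fold in either. The 8 glycogen genes had a median of −0.56, with 1 higher and 3 lower. The 10 hypoxia targets outside glycolysis had a median of 0.13, with 1 higher and 1 lower, and the 7 genes of the hypoxia pathway −0.08, with 0 past 2-fold. The 10 genes of pyruvate entry and the pyruvate dehydrogenase complex had 0.11, with 1 higher and 1 lower. The 9 genes of side branches had −0.01 and the 4 of gluconeogenesis 0.27, each with 1 higher, and the 4 hexose transporters had 0.24 and the 6 regulators 0.30, with 0 past 2-fold. The median of all measured genes was 0.02, and that of the genes with a mean scaled signal at or above 0 was −0.15. The branches were not matched for signal.

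Markers of other cells were read beside these values. Of the 9 erythroid markers 6 were measured, 0 of them past 2-fold, with a log2 summed signal of 2.71 on the DAC array, against 2.88 on the PBS array. Epor was seen only in the DAC sample, at least 2.83-fold higher, and Alas2 only in the PBS sample, at least 1.77-fold lower in the DAC sample. Of the 9 neutrophil markers 7 were measured (2.71 on the DAC array, 3.08 on the PBS array), 1 at least 2-fold higher and 2 lower, with Mmp8 and Mmp9 on neither. The 3 measured monocyte and macrophage markers summed to 2.69 on the DAC array, against 2.60 on the PBS array, and 3 more were seen only in the DAC sample. These were Adgre1, at least 4.97-fold higher, Cd14, at least 1.69-fold, and Ccr2, at least 1.03-fold. The 3 measured T and NK cell markers summed to 3.06 on the DAC array, against 3.07 on the PBS array, with Nkg7 at 2.88 on the DAC array, against 2.92 on the PBS array. None of these 3 passed 2-fold, but Cd3d was seen only in the PBS sample, at least 4.51-fold lower in the DAC sample, and Klrb1c only in the DAC sample, at least 1.05-fold higher, while Cd3g and Cd8a were on neither. The 4 measured B cell markers summed to 2.60 on the DAC array, against 1.86 on the PBS array, with Pax5 past 2-fold (1.28), and the 3 measured endothelial and stromal markers to 0.80 on the DAC array, against 0.31 on the PBS array, with Pecam1 higher (2.95) and Cxcl12 lower (−1.42) past 2-fold. Col3a1 was seen only in the PBS sample, at least 2.46-fold lower in the DAC sample, and Cdh5, Col1a1 and Lepr were on neither. The part of such cells in the values of Pdk2, Aldoc, Slc16a1, Slc16a3, Pfkfb3 and Gapdhs was not tested.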

How the data were processed

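Expression was measured on 1 Agilent mouse array per group. Per the file headers, Feature Extraction 10.7.3.1 made the deposited processed intensity, which is background-subtracted and not normalized between arrays, and the deposited calls for spots above background (other). The deposited series matrix holds log2 values with column medians of 0. Against the log2 intensity its difference between arrays had a slope of 1.00 and an offset of −0.60, while the baseline per probe is unknown, so it served as an alternative only. No probe was saturated.

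From the intensity, log2 values were scaled by subtracting each array's 75th percentile (813 for DAC and 618 for PBS, as intensity) over the 25404 probes that passed background on each array, which were 45.6% of 55680 probes. A probe passed if 50% or more of its spots were called well above background. Where only 1 array passed, a lower bound replaced the fold. Spot error came from 193 probes with 10 spots.

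Gene names are those of the files, and older symbols were matched through synonyms in the GRCm38.p6 table. Probe positions are mm9. Members, lists and rules were chosen with earlier results of these data known. All 39 members are accounted for, and those past 2-fold, or with a bound past it, are described in full. No test was possible with 1 array a group, and the number of arrays limits the precision. Python 3.11.15, pandas 2.3.3, numpy 2.4.6, R 4.3.3 and limma 3.58.1 (normexp, quantile, loess) were used, and the calculation was tested on simulated data. Some listed marker genes are not reported here. The alternatives varied background correction, scaling, filter and probe choice.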

Additional observations from a re-analysis of the deposited data

How the results depend on the processing

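No paired analysis was possible because each group has 1 array, and for the same reason no array could be left out. The limits are the single array per group, a spot error that is technical only, and dim signals near background. Members at least 2-fold higher on the DAC array numbered 1, against 2 as reported, with normexp, without background subtraction, and with scaling on all probes, median centring, quantile, loess, spike-in or series matrix values. They numbered 4 when the call was positive and significant, 5 unfiltered, 0 among genes of at least median signal and 0 with the second brightest probe. Members at least 2-fold lower numbered 1 with normexp, without background subtraction and with the mean over probes, 5 with scaling on all probes, median centring, quantile, spike-in or matrix values, 4 with loess and 0 with the second brightest probe. The median difference was −0.22 with scaling on all probes, −0.17 with median centring, −0.33 with the spike-in, −0.21 with matrix values and 0.16 with the second brightest probe. The median of all measured genes was −0.18, −0.14, −0.29 and −0.18 under the first 4 of these and −0.09 with quantile normalization, against 0.02 as reported. Relative to it the members lay at −0.03 under those 4 and as reported, 0.12 with quantile and 0.07 with loess. With the second brightest probe, Pfkfb3 turned to 0.35, Hk1 to 0.31 and Pfkp to 0.38, and Hk1 was also 0.31 with the mean over probes. Scaling on all probes, median centring, the spike-in and matrix values change every difference by a constant, so members and all genes moved alike. The cause of the other shifts was not tested, and the second-probe setting held only 8 members. Over the whole array, genes at least 2-fold higher and lower numbered 721 and 756 with normexp, 720 and 737 without background subtraction, 3675 and 2200 when the call was positive and significant, 5378 and 3045 unfiltered, 481 and 418 at median signal or more, 682 and 362 with the second probe, and 1113 and 2357 with the spike-in. Reading only probes on the gene's own chromosome, chosen after seeing the data, gave 2 higher and 2 lower of 30 members. Of the alternatives for single members, 234 stayed within the spot error of the reported value and 177 moved by more. Many of the 234 repeat the reported value by construction, so their number is no measure of stability. These are the settings that change only the filter, and the mean over probes for genes with 1 measured probe. The own-chromosome setting also repeats it wherever the brightest probe lies on the gene's chromosome. In 1 a member past 2-fold changed sign, while sign changes of members within 2-fold are not counted apart.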
